A study of Canis lupus familiaris with 11 samples.

Results

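The 40 genes described here encode nucleolar proteins that make ribosomes. They were taken by name from a fixed list, chosen with earlier results of these data known. All 40 were found among 26178 genes in the table, 36 by gene name and 4 (BOP1, DKC1, MRTO4 and PES1) through the protein named in the description. All 40 passed the filter on low counts that left 13560 genes to be tested. RNA was measured in MDCKII cells, an epithelial line from dog kidney, and in a derivative with a knockout (KO) of LMNA, the gene for the nuclear lamina proteins lamin A and C. Wild-type (WT) controls (3 libraries) and KO controls (2) grew for 3 to 4 d as sheets that were not compressed, and WT compressed (3) and KO compressed (3) cells grew for the same time, were compressed laterally and recovered for 2 h. The labels do not state how the compression was applied, whether controls had a sham treatment or how many KO clones were used. The series' design text describes other time points, and the groups here follow the sample titles.

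Ribosome production starts in the nucleolus, where RNA polymerase I copies the ribosomal DNA into one long precursor. Small nucleolar RNA-protein particles (snoRNPs) of the box C/D and box H/ACA classes modify this precursor, and the small subunit (SSU) processome folds and cuts it. Separate sets of factors then finish the 40S subunit and assemble the 60S subunit before export, and in many cell types the genes for these factors respond together to growth signals and to the transcription factor MYC. By role the 40 genes comprised 3 for RNA polymerase I transcription, 3 of the box C/D and 3 of the box H/ACA snoRNPs, 5 nucleolar chaperones and organisers, 11 of the SSU processome, 5 for late 40S maturation and 10 for 60S assembly.

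Library totals ran from 10420214 to 17999623 counts, and LMNA, the check of the genotype labels, was lower in every KO library (25.5 to 51.8 CPM, counts scaled to a common library size by the TMM method of edgeR) than in every WT library (679 to 1208). WT control replicate 1 and KO compressed replicate 2 stood apart from the other replicates of their groups, with chi-square values per gene of 48.1 to 77.1 and of 57.7 to 69.2, against 15.1 and 36.9 between the remaining pairs. WT compressed replicate 3 also differed from its group, with 16.3 and 22.9 against 6.09 between the other pair. Values without these libraries are given for some of the counts that they change. The labels do not say that replicates were separate cultures, so p-values measure only the spread between these libraries. Epithelial markers were present, with KRT8 at a mean of 2171 CPM. Of 11 fibroblast and smooth muscle markers 9 had means under 1 CPM, DCN and LUM were at 0 in every library, and the sum was 25.5 to 32.0 CPM in WT and 22.9 to 31.6 in KO libraries, led by MYH11. Of 7 immune markers 5 were under 1 CPM, PTPRC and CD3E were at 0, and the sum was 5.14 to 10.3 CPM in WT and 8.34 to 12.2 in KO libraries, led by CD14 at a mean of 5.01 CPM. The 6 endothelial markers found had means under 1 CPM and sums of 0.486 to 4.33 CPM in WT and 0.0843 to 0.939 in KO libraries, and KDR was at 0.169 to 2.76 CPM in WT and at 0 in all KO libraries. Their part in the genotype differences below was not tested.

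These genes were abundantly expressed. On the length-scaled FPKM scale (the authors' fragment counts scaled for gene length and library size), the only one used here to compare genes with each other, the median of their mean levels was 47.8, against 10.9 over all genes tested, and 39 of 40 lay above that median. NPM1, a histone and ribosomal protein chaperone, had the highest mean level at 1963 FPKM (1511 to 2939 over the 11 libraries). NCL (nucleolin, which binds the precursor RNA and ribosomal DNA) followed at 455 FPKM and FBL (fibrillarin, the methyltransferase of box C/D particles) at 250.2 FPKM. At the other end were DDX10, an RNA helicase, at 11.2 FPKM and DDX56, a 60S helicase, at 7.48 FPKM. The ranges of NPM1 and NCL over libraries did not overlap with each other or with any other member's.

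The main pattern was a lower level in KO than in WT cells. Added up, the 40 genes reached 8237 ± 263 CPM (SD, n = 3) in WT control and 9189 ± 1028 (n = 3) in WT compressed libraries, against 7158 ± 107 (n = 2) in KO control and 7112 ± 427 (n = 3) in KO compressed libraries. All KO libraries (6788 to 7596 CPM) lay below all WT libraries (7940 to 10373). The same held without NPM1 and NCL, which alone made up 34.0 to 45.0% of the sum: the other 38 genes gave 3780 to 4533 CPM in KO and 4848 to 5704 in WT libraries. As a share of all raw counts, with no scaling between libraries, the 40 genes took 0.652 to 0.740% in KO and 0.821 to 0.986% in WT libraries. These are levels per sequenced RNA in bulk samples, in which fewer cells of a type and less RNA per cell cannot be told apart.

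**Figure D1:**
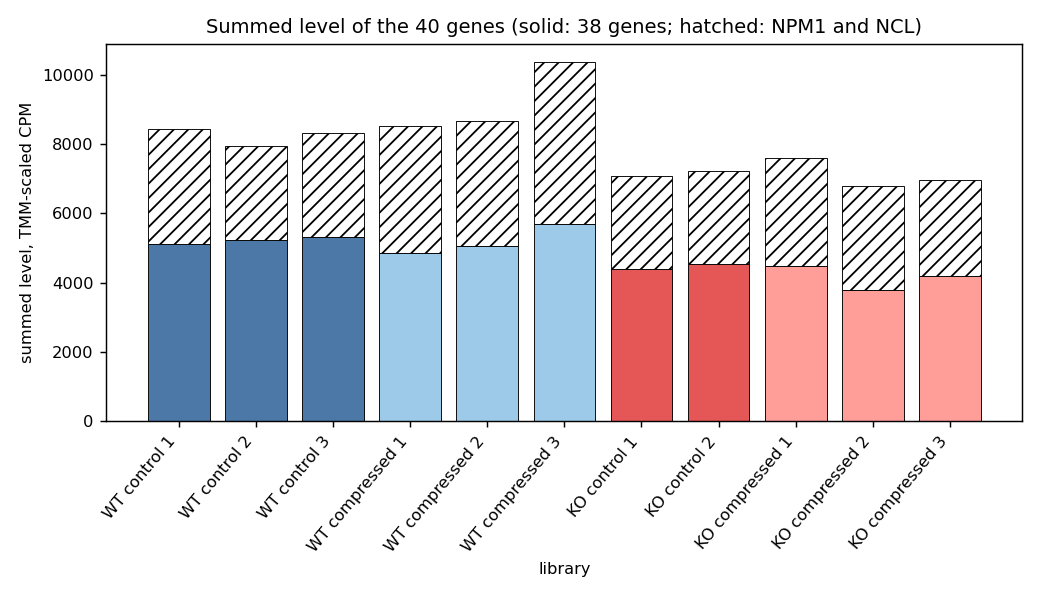
Summed level of the 40 genes in each of the 11 libraries, in CPM with TMM scaling; the hatched part of each bar is NPM1 and NCL, the solid part the other 38 genes. The 5 KO bars (6788 to 7596) are all lower than the 6 WT bars (7940 to 10373), and the highest is WT compressed replicate 3.

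Gene by gene, in compressed cells the log2 fold change of KO over WT was below 0 for 40 of 40 genes, against 51% of all genes tested, with a median of -0.32 (range -0.77 to -0.00), against -0.01 over all genes. Only 1 of 40 passed the test (DDX21, lower), where 0.789% of all genes passed, 0.509% higher and 0.28% lower (edgeR quasi-likelihood test, Benjamini-Hochberg adjusted p under 0.05). At an unadjusted p under 0.05, 16 of 40 were lower and none higher, where 11.3% of all genes passed, 4.49% lower and 6.79% higher. In 20 of 40 genes every KO compressed library lay below every WT compressed library, where 7.82% of all genes did so, and in none did every KO library lie above, where 7.92% of all genes did. The count of 40 below 0 was kept under TMM, RLE and library-size scaling, and was 32 without KO compressed replicate 2 (median -0.28). Without WT compressed replicate 3 it was 38, the median -0.25 and the count at an unadjusted p under 0.05 fell to 7. That library was the shallowest and held the highest value of all 11 libraries in 20 of the 40 genes, and KO compressed replicate 2 held the lowest in 18.

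In control cells 34 of 40 genes were below 0 in KO relative to WT, against 51.7% of all genes, with a median of -0.20, against -0.01. None passed the edgeR test (smallest adjusted p = 0.438), where 0.339% of all genes passed (0.133% higher and 0.206% lower), and DESeq2 and limma also called none. At an unadjusted p under 0.05, 5 were lower (DDX21, DDX56, DKC1, NOP14 and NOP2; 12.5%, against 3.2% of all genes) and 0 were higher, against 4.59% of all genes. In 13 of 40 genes both KO control libraries lay below all 3 WT control libraries, where 15% of all genes did so, and in none did both lie above, where 16.9% of all genes did. The difference was more negative after compression in 28 of 40. Without WT control replicate 1 and KO compressed replicate 2, 33 of 40 genes were below 0 in control cells (median -0.21). The count lower at an unadjusted p under 0.05 (edgeR) was then 14, where 2475 of 13451 genes had such a p in either direction.

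**Figure D2:**
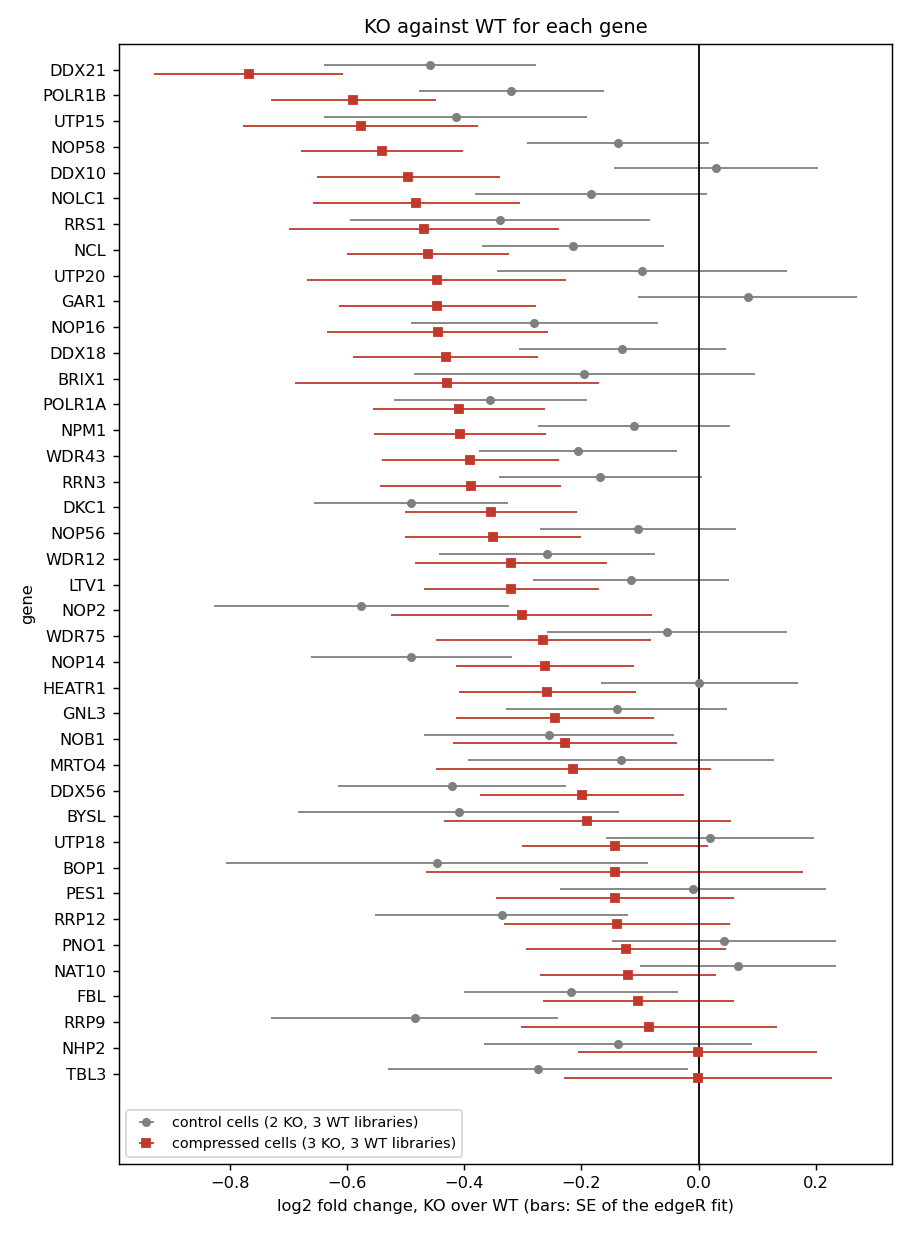
Log2 fold change of KO over WT for each of the 40 genes in control cells (grey circles) and in compressed cells (red squares), with bars of 1 standard error of the edgeR fit; genes are ordered by the value in compressed cells. All 40 squares are below 0, from -0.77 for DDX21 to -0.00 for TBL3, and 34 of the 40 circles are below 0.

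DDX21 was the one gene that passed as lower in KO cells. It encodes an RNA helicase that binds ribosomal DNA and small nucleolar RNAs and promotes transcription by RNA polymerases I and II, and lies at chr4:20109822-20132111 (CanFam3.1) where it overlaps its paralog DDX50, annotated on the same strand, so reads of the overlap cannot be fully told apart. Its level was 265, 181 and 227 CPM in WT control replicates 1 to 3 and 213, 210.1 and 263 CPM in WT compressed replicates. It was 154 and 173 CPM in KO control and 129, 133 and 140.2 CPM in KO compressed replicates. The highest KO library was below the lowest WT library. In compressed cells KO over WT was -0.77 ± 0.16 (log2, SE), a 1.70-fold lower level (adjusted p = 0.0447, edgeR). Averaged over both treatments it was -0.61 ± 0.12 (adjusted p = 0.0196), and in control cells alone -0.46 ± 0.18 (adjusted p = 0.573). The compressed call was lost in 10 of 17 alternative analyses, among them the 5 that left out WT compressed replicate 1, 2 or 3 or KO compressed replicate 1 or 3 (adjusted p 0.0916 to 0.224), while the value stayed between -0.83 and -0.66. A DDX21 pseudogene on chromosome 8 held 768 reads in all, against 29123 for the gene.

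Over both treatments, 4 of the 40 genes were lower in all 5 KO than in all 6 WT libraries (DDX21, DKC1, NCL and POLR1B), where 1.35% of all genes were. None was higher in all KO libraries, where 1.63% of all genes were. Without WT control replicate 1 and KO compressed replicate 2 there were 6, with NOLC1 and NOP16 added, where 2.68% of all genes were lower. In the edgeR fit averaged over treatments 40 of 40 values were below 0, against 50.6% of all genes, and the median was -0.28. DDX21 alone passed, where 1.53% of all genes did (0.937% higher and 0.59% lower). At an unadjusted p under 0.05, 18 of 40 were lower and 0 higher, where 13% of all genes passed, 5.56% lower and 7.43% higher. The averaged DDX21 call was kept in 15 of 21 alternatives and was lost without WT control replicate 3, WT compressed replicate 1 or 3 or either KO control library (adjusted p 0.0502 to 0.192). Without WT control replicate 1 and KO compressed replicate 2, 8 of 40 genes were called lower in compressed cells (456 of 13451 of all genes) and 5 in the average (216 of 13451).

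The 3 RNA polymerase I genes had KO over WT values of -0.36 to -0.17 in control and -0.59 to -0.39 in compressed cells, and none passed the adjusted threshold. POLR1B, the second largest subunit of the polymerase, had 239, 225 and 241 CPM in WT control and 206, 222 and 271 CPM in WT compressed libraries, against 186 and 191 CPM in KO control and 141, 156 and 168 CPM in KO compressed libraries. Every KO library was thus below every WT library. The value was -0.59 ± 0.14 in compressed cells (adjusted p = 0.0832, edgeR) and -0.46 ± 0.11 averaged over treatments (adjusted p = 0.0523), which did not pass. POLR1A, the largest subunit, had 148, 145 and 149 CPM in WT control, 107, 124 and 141 in WT compressed, 116 and 114 in KO control and 99.8, 81.0 and 99.9 in KO compressed libraries. All KO libraries were below the WT libraries of the same treatment (-0.36 ± 0.16 in control, -0.41 ± 0.15 in compressed cells). RRN3 (TIF-IA), the initiation factor through which growth signals reach the polymerase, had 102, 83.1 and 93.6 CPM in WT control, 90.3, 105 and 116 in WT compressed, 83.2 and 82.0 in KO control and 69.0, 86.7 and 82.2 in KO compressed libraries. Its KO libraries lay below the WT ones in compressed cells (-0.39 ± 0.15, adjusted p = 0.341), and in controls the KO values reached the lowest WT value (-0.17 ± 0.17).

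Box C/D particles methylate the ribosomal RNA. NOP58, a core protein of these particles, was at 275, 218 and 241 CPM in WT control, 319, 299.7 and 366 in WT compressed, 213 and 231 in KO control and 212, 237 and 227 in KO compressed libraries. The 3 WT compressed libraries stood above the other 8. KO over WT was -0.54 ± 0.14 in compressed cells (adjusted p = 0.110, edgeR) and -0.14 ± 0.16 in controls. FBL, the catalytic subunit, overlapped between genotypes after compression, with 384, 399 and 381 CPM in WT and 447, 284 and 352 CPM in KO libraries (-0.10 ± 0.16), and the WT control libraries had 373, 469.8 and 446 CPM and the KO controls 357 and 382. NOP56, the partner of NOP58 in the particle, was at -0.35 ± 0.15 in compressed cells and -0.10 ± 0.17 in controls.

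Box H/ACA particles convert uridines of the ribosomal RNA to pseudouridine. Their catalytic subunit DKC1 (dyskerin, X:122838762-122851163) was at 239, 271 and 256 CPM in WT control, 207, 210.1 and 243 in WT compressed, 181 and 182 in KO control and 203, 149 and 165 in KO compressed libraries. Every KO library was below every WT library, and the value was -0.49 ± 0.17 in control cells (adjusted p = 0.438, edgeR), -0.35 ± 0.15 in compressed cells (adjusted p = 0.368) and -0.42 ± 0.11 averaged (adjusted p = 0.0845). NHP2, a small core protein, did not separate the genotypes, with 106, 157 and 125 CPM in WT control, 118, 111 and 129 in WT compressed, 117 and 118 in KO control and 157, 88.1 and 111 in KO compressed libraries.

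The 5 chaperones and organisers had the lowest group median in compressed cells (-0.46, 5 of 5 below 0, 1 called). NCL was at 1599, 1365 and 1536 CPM in WT control, 1464, 1602 and 2033 in WT compressed, 1317 and 1268 in KO control and 1187, 1288 and 1226 in KO compressed libraries, with no overlap between genotypes (-0.46 ± 0.14 in compressed cells, adjusted p = 0.181, edgeR). NOLC1, which escorts snoRNPs, was at -0.48 ± 0.18 (adjusted p = 0.287), and GNL3 (nucleostemin, a GTPase of proliferating cells) had the smallest difference of the group at -0.24.

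Among the 11 SSU processome genes the median was -0.26 in compressed cells (11 of 11 below 0) and -0.10 in controls (7 of 11). WDR43, a processome scaffold protein, was at 300.4, 244 and 319 CPM in WT control, 278, 283 and 371 in WT compressed, 248 and 250.3 in KO control and 244, 236 and 231 in KO compressed libraries. The KO compressed libraries were all below the WT compressed ones, while the WT control range included the KO controls (-0.39 ± 0.15 and -0.21 ± 0.17). DDX10 was at 53.8, 43.8 and 49.7 CPM in WT control, 64.9, 66.7 and 82.3 in WT compressed, 49.9 and 50.4 in KO control and 51.2, 47.1 and 53.2 in KO compressed libraries. Only its WT compressed libraries stood out, above the other 8, and KO over WT was 0.03 ± 0.18 in controls and -0.50 ± 0.16 in compressed cells (adjusted p = 0.206, edgeR). TBL3 and RRP9, 2 other processome proteins, hardly differed in compressed cells (-0.00 ± 0.23 and -0.09 ± 0.22). UTP15, which binds the newly made precursor, had the most negative value of the group after compression (-0.58 ± 0.20, adjusted p = 0.257, edgeR) and was at -0.42 in controls. The very large scaffold proteins HEATR1 and UTP20 were at 0.00 and -0.10 in controls and at -0.26 and -0.45 in compressed cells, and WDR75 was at -0.05 and -0.27. NOP14 went the other way, from -0.49 in controls to -0.26. UTP18 was at 0.02 in controls and -0.14 in compressed cells, and NAT10, an RNA acetyltransferase, at 0.07 and -0.12.

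Late 40S factors were the least different group after compression, with a median of -0.19, and all 5 were below 0 without reaching an unadjusted p under 0.05. PNO1, an RNA-binding partner of the nuclease NOB1, was at 145, 168 and 177 CPM in WT control, 178, 180.5 and 236 in WT compressed, 163 and 173 in KO control and 224, 162 and 159.6 in KO compressed libraries, with overlap in both comparisons. BYSL (bystin) was at 57.7, 70.7 and 61.4 CPM in WT control, 38.4, 43.5 and 45.8 in WT compressed, 48.3 and 47.0 in KO control and 47.4, 20.9 and 43.5 in KO compressed libraries. Its WT control libraries were the 3 highest of all 11, and 20.9 CPM in KO compressed replicate 2 was the lowest. Of the remaining members, RRP12, an export factor, was at -0.34 in controls and -0.14 in compressed cells, NOB1, the nuclease that makes the mature small subunit RNA end, at -0.26 and -0.23, and LTV1, an assembly factor, at -0.12 and -0.32.

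The 60S group had a median of -0.31 in compressed (10 of 10 below 0) and -0.27 in control cells (10 of 10). NOP16, a 60S assembly protein, was at 50.7, 71.6 and 72.3 CPM in WT control, 58.0, 61.6 and 69.3 in WT compressed, 53.3 and 53.6 in KO control and 52.1, 36.2 and 50.2 in KO compressed libraries. Only WT control replicate 1 kept the genotypes from separating (-0.45 ± 0.19 in compressed cells, adjusted p = 0.379, edgeR). NOP2, a ribosomal RNA methyltransferase, had the most negative control value of the 40 genes at -0.58 ± 0.25 (adjusted p = 0.613). RRS1, which helps to place the 5S RNA particle, DDX18, a helicase, and BRIX1 were at -0.34, -0.13 and -0.20 in controls and at -0.47, -0.43 and -0.43 in compressed cells. DDX56 and BOP1 had the larger difference in controls (-0.42 and -0.45, against -0.20 and -0.14). WDR12 (-0.26 and -0.32), MRTO4, an early occupant of the 60S stalk site (-0.13 and -0.21), and PES1 (-0.01 and -0.14) had similar values in both treatments.

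**Figure D3:**
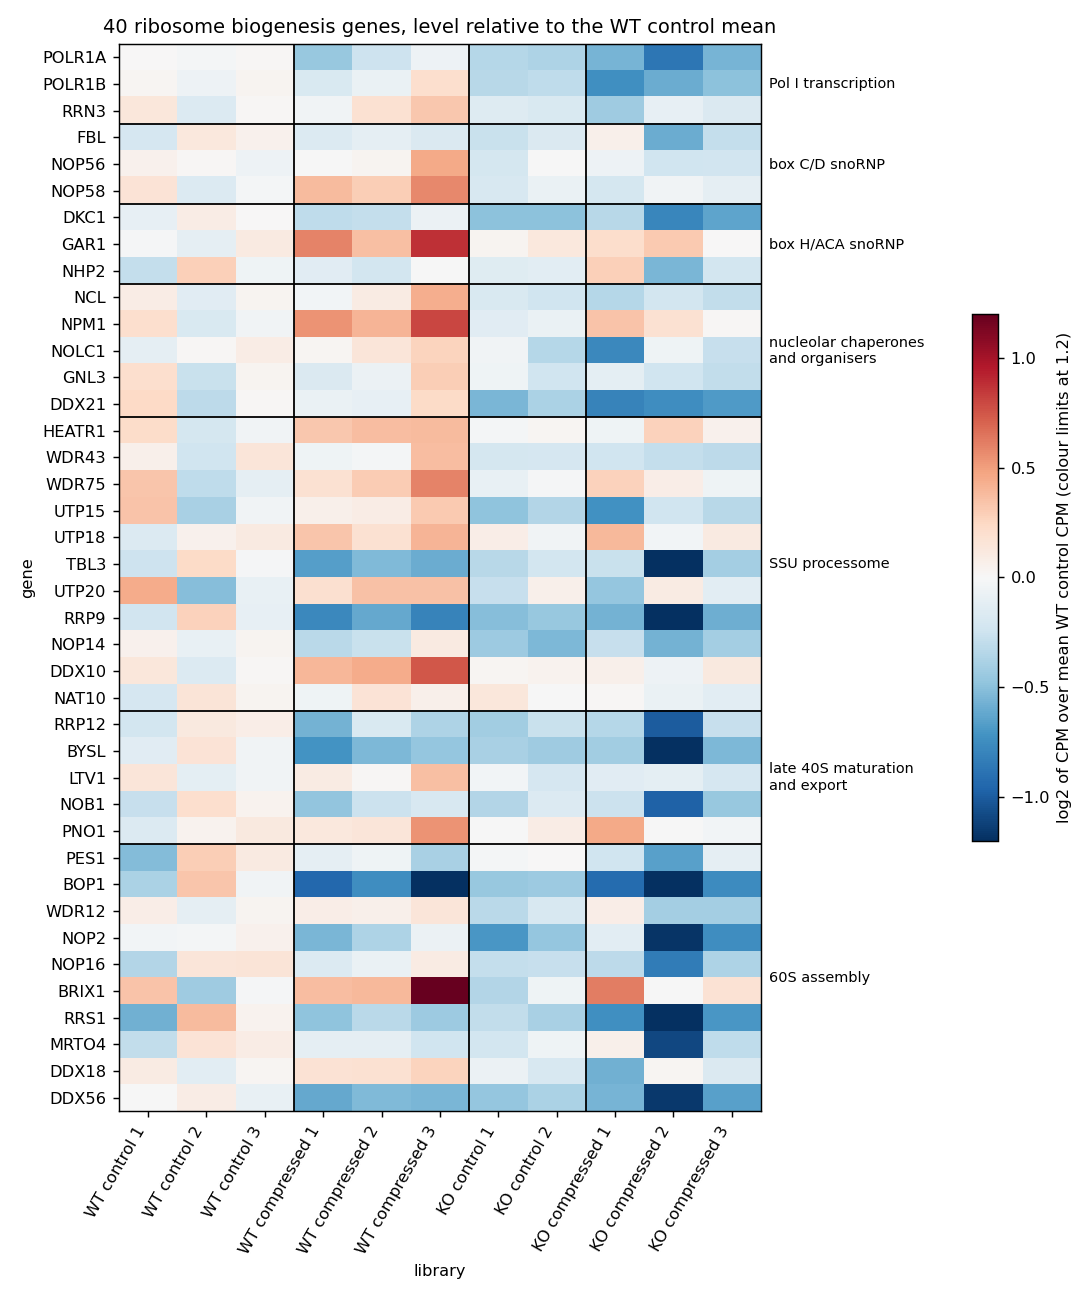
Level of each of the 40 genes (rows, by role) in each library (columns), as log2 of its CPM over the mean of the 3 WT control libraries; red is higher, blue is lower, with colour limits at 1.2. Blue prevails in the KO columns, with 28 to 36 of 40 genes below the WT control mean per library. The WT compressed columns mix both colours, with 15 to 25 of 40 below it. Shares of all genes per library were not computed.

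WT compressed and WT control libraries differed in both directions for these genes, at about the rate of other genes. Of the 40 genes, 2 rose (NPM1 and GAR1) and none fell, where 6.25% of all genes passed the edgeR test (3.85% higher and 2.4% lower). The median log2 fold change was 0.04, against -0.02 over all genes, and values ran from -1.03 (BOP1) to 0.71 (BRIX1). At an unadjusted p under 0.05, 6 were higher and 5 lower, a share of 27.5%, where 31.8% of all genes passed (15.4% higher and 16.4% lower). In 9 genes all compressed libraries lay above all controls and in 7 all lay below, where 21.2 and 20.8% of all genes did so. Without WT control replicate 1 and KO compressed replicate 2, an analysis added after the data were seen, 17 of 40 passed (8 higher and 9 lower), and 4579 of 13451 genes did.

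NPM1 (chr4:40756782-40770088) was at 1739, 1336 and 1473 CPM in WT control and 2209.6, 2012 and 2636 CPM in WT compressed libraries. It was at 1376 and 1433 CPM in KO control and 1922, 1719.6 and 1527 CPM in KO compressed libraries. In both genotypes every compressed library was above every control. The rise in WT cells was 0.59 ± 0.15 (1.51-fold, adjusted p = 0.0435, edgeR), the KO value was 0.30 ± 0.16 (adjusted p = 0.773), and the average over genotypes was 0.44 ± 0.11 (adjusted p = 0.0444). The WT call was kept in 8 of 17 alternatives and was lost when any one WT library other than control replicate 1 was left out (adjusted p 0.0505 to 0.192, values 0.48 to 0.68). The averaged call was kept in 8 of 21 and was lost without WT control replicate 2 or 3, WT compressed replicate 1 or 3, either KO control library or KO compressed replicate 1 or 2 (adjusted p 0.0525 to 0.183). Reads of 2 NPM1 copies on chromosomes 17 and 2 came to 6.27% and 2.21% of the reads of NPM1 itself, so its count is uncertain by how the authors' counting split them.

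GAR1 (chr32:29996432-30004425), a small subunit that helps the H/ACA particle release its substrate, was at 46.7, 43.9 and 50.9 CPM in WT control and 71.3, 60.7 and 86.5 CPM in WT compressed libraries. It was at 48.4 and 51.7 CPM in KO control and 54.5, 58.5 and 47.3 CPM in KO compressed libraries. The 3 WT compressed libraries were the highest of all 11, and KO compressed libraries overlapped the KO controls. The rise in WT cells was 0.63 ± 0.17 (1.54-fold, adjusted p = 0.0471, edgeR), and the KO value was 0.10 ± 0.19 (adjusted p = 0.911). The WT call was kept in 6 of 17 alternatives and was lost when any one WT library was left out (adjusted p 0.0510 to 0.203). The difference between the genotypes' responses was -0.53 ± 0.25 (adjusted p = 0.939), so a different response of GAR1 was not established.

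BOP1 (chr13:37698700-37724621) forms with PES1 and WDR12 the PeBoW complex, which processes the precursor of 60S ribosomal RNA. It was at 96.0, 158 and 122 CPM in WT control and 65.3, 74.5 and 44.0 CPM in WT compressed libraries. In KO cells it was at 91.4 and 92.2 CPM in control and 66.2, 25.7 and 74.4 CPM in compressed libraries. In both genotypes every compressed library was below every control. The WT value was -1.03 ± 0.32 (adjusted p = 0.0632, edgeR), the KO value -0.73 ± 0.35 (adjusted p = 0.773), and the fall averaged over genotypes was -0.88 ± 0.24 (1.84-fold lower, adjusted p = 0.0488). It and NPM1 were the 2 of 40 genes to pass in that average, where 5.58% of all genes did (3.33% higher and 2.24% lower), and 11 of 40 had an unadjusted p under 0.05, where 31.4% of all genes did. The averaged BOP1 call was kept in 9 of 21 alternatives. It was lost when WT control replicate 2 or 3, WT compressed replicate 1 or 3, either KO control library or KO compressed replicate 1 was left out (adjusted p 0.0537 to 0.183). BOP1 overlaps 4 annotated genes, SHARPIN, VPS28, HSF1 and 1 without a name. SHARPIN and VPS28 lie on the same strand as BOP1, so reads of those overlaps cannot be fully told apart. HSF1 and the gene without a name lie on the opposite strand. No source used here states the strand setting of the counting, so whether reads of these 2 overlaps were separated is unknown. The same-strand limit also holds for GNL3 (with SPCS1). The opposite-strand limit holds for NOB1 (WWP2), BRIX1 (RAD1), NAT10 (LMO2, 53 reads) and PNO1 (a gene without a name). Each of these members overlaps 1 annotated gene.

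**Figure D4:**
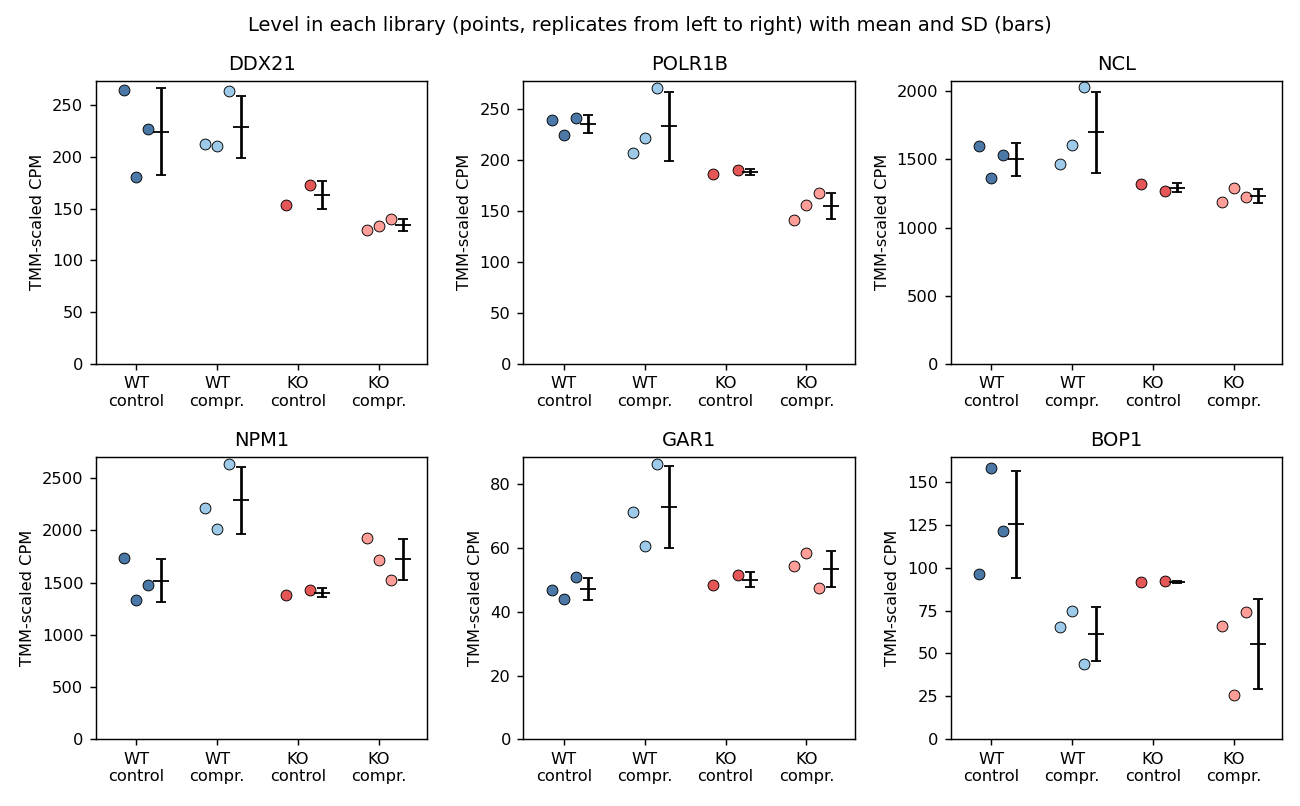
Level in each library (points, replicates from left to right) of DDX21, POLR1B, NCL, NPM1, GAR1 and BOP1, in CPM with TMM scaling; the bar beside each group is the mean and SD. DDX21, POLR1B and NCL are lower in all KO than in all WT libraries, NPM1 is higher and BOP1 lower in all compressed libraries than in the controls of the same genotype, and GAR1 stands out in WT compressed cells.

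Of 10 ratios computed between pairs of members, 7 did not overlap between WT control and WT compressed libraries, and 3 (PES1 to WDR12, FBL to NOP56 and NHP2 to DKC1) did. In KO cells 3 did not overlap and 7 did. The pairs were chosen after the values were seen, some share a member, and ratios of other gene pairs were not computed. Among single genes, 21.2% lay wholly higher and 20.8% wholly lower after compression in WT cells. In KO cells, with 2 controls, 13.5 and 14% did so. The difference in these counts between the genotypes was not tested. On the FPKM scale the ratio of PES1 to BOP1 was 0.942 to 1.15 in WT control and 1.68 to 2.25 in WT compressed libraries, and 1.40 to 1.41 in KO control and 1.62 to 3.21 in KO compressed libraries. The ratio of GAR1 to DKC1 was 0.593 to 0.729 in WT control and 1.06 to 1.30 in WT compressed libraries, and the KO controls already had 0.977 to 1.04. The ratio of NPM1 to NCL went from 3.39 to 3.84 in WT control to 4.44 to 5.33 in WT compressed libraries, and from 3.69 to 3.99 in KO control to 4.40 to 5.72 in KO compressed libraries. Of these 3 ratios, GAR1 to DKC1 overlapped in KO cells (0.982 to 1.44 after compression). The ratios are descriptions, and no test was made of them.

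Other WT values did not pass the adjusted threshold. DDX10 was at 0.54 ± 0.16 (adjusted p = 0.0546, edgeR) and NOP58 at 0.42 ± 0.14 (adjusted p = 0.0702), while RRP9 was at -0.73 ± 0.22 (adjusted p = 0.0576), DDX56 at -0.56 ± 0.17 (adjusted p = 0.0604) and BYSL at -0.57 ± 0.25 (adjusted p = 0.130). By role, all 5 chaperones and organisers and 8 of 11 SSU processome genes were above 0 (medians 0.15 and 0.16), and 3 of 5 late 40S and 7 of 10 60S genes were below 0 (medians -0.30 and -0.16). POLR1B (-0.01) and DDX21 (0.03) hardly differed between WT control and compressed cells.

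In KO cells no member passed for compression. The smallest adjusted p was 0.773 (edgeR), 0% of all genes passed, no member reached an unadjusted p under 0.05, where 6.11% of all genes did, and DESeq2 and limma called none. Of 40 values, 28 were below 0, against 50.5% of all genes, with a median of -0.07, against -0.00. BRIX1, a 60S assembly factor, and NPM1 were higher in all 3 compressed than in both control libraries, and 10 genes were lower (POLR1A, POLR1B, DDX21, RRP9, WDR43, BOP1, DDX56, NOP16, PES1 and RRS1), where 13.5% of all genes were higher and 14% lower. The interaction of genotype and compression called no member and 0% of all genes. Only DDX10 had an unadjusted p under 0.05 (-0.53 ± 0.23, adjusted p = 0.939), where 4.79% of all genes did, and 28 of 40 values were below 0, against 48.7% of all genes, with a median of -0.16. No difference between WT and KO responses to compression was thus shown for any member. Over all genes this depended on the outlying libraries. Without KO compressed replicate 2, 2272 of 13500 genes had an unadjusted interaction p under 0.05 (edgeR) and 0 were called. Without WT control replicate 1 as well, 370 of 13451 were called (87 higher and 283 lower), none of them a member.

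The difference between WT compressed and WT control libraries varied with the gene density of the chromosome around each member. Density was counted as protein-coding genes with their midpoint within 0.5 Mb on each side, and 39 members could be placed, DDX56 being on an unplaced scaffold. BOP1, with 61 such genes, TBL3, with 57, NOP2, with 44, FBL, with 41, and RRP9, with 37, all had log2 fold changes below 0, and DDX18, with 3, DDX10, with 6, and NPM1 and UTP15, with 7 each, were all above 0. The next densest, GNL3, with 28, NOLC1, with 25, and NOP56, with 24, were above 0 (0.03, 0.15 and 0.18). Above the members' median of 12 genes, 14 of 19 members were below 0 (median -0.15), and at or below it 3 of 20 were (median 0.25). The shares of all genes on each side of this cut were not computed, and all genes showed the same direction along the axis. Spearman's rho across the 39 members was -0.72, and it was -0.41 across the 13399 placed genes tested. For compression in KO cells rho was -0.57 across members and -0.31 across all genes. For KO over WT it was -0.53 and -0.17 in control cells, and 0.39 and 0.17 in compressed cells, so the genotype difference had no single direction along this axis. Replicates of 1 group also spread along this axis. BOP1, TBL3, NOP2, FBL and RRP9 were lower in WT control replicate 1 than in replicate 2. DDX18, DDX10, NPM1 and UTP15 were higher in replicate 1. On log2 of CPM over the WT control mean, BOP1 was at -0.38 and 0.34 and UTP15 at 0.34 and -0.38. Whether compression moved the genes beyond this spread was not tested. All these points come from the same 11 libraries, neighbouring genes share a density, and base composition was not analysed here.

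**Figure D5:**
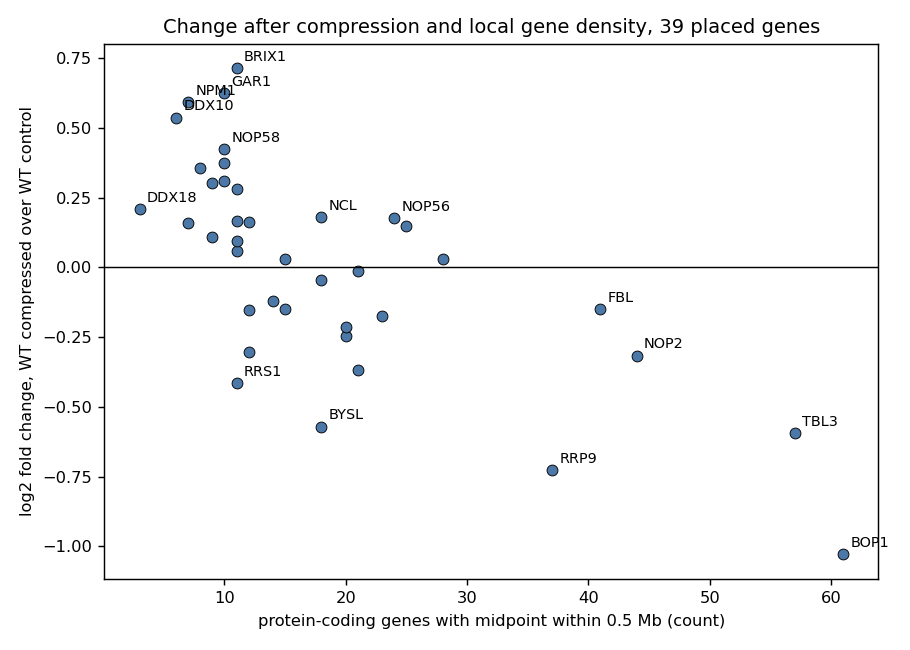
Log2 fold change of WT compressed over WT control for the 39 placed genes, against the number of protein-coding genes with a midpoint within 0.5 Mb. Members in gene-poor surroundings lie mostly above 0 and those with over 30 neighbours lie below 0, with BOP1 at 61 genes and -1.03.

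The annotation held 1 more shared feature. Small nucleolar RNA genes lay inside 6 of the 40 members (NOP56 with 5, NOP58 and GNL3 with 4 each, NCL and WDR43 with 3 each and DKC1 with 2), a share of 15%, against 0.912% of 19856 protein-coding genes. The libraries were made from polyadenylated RNA, and the counts of the small RNAs themselves were not analysed here. All 6 hosts had KO over WT values below 0 in both treatments, as did 34 of the 40 members.

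Other listed genes of the pathway showed the same direction in KO cells. Their list, too, was chosen with earlier results of these data known. The values come from the same 11 libraries, so they are not independent support. Of 131 other ribosome biogenesis genes listed, 129 were tested, and in compressed cells 116 of them had a KO over WT value below 0, against 51% of all genes, with a median of -0.28. None passed the edgeR test (smallest adjusted p = 0.0928), and 37 were lower and 0 higher at an unadjusted p under 0.05, where 4.49% of all genes were lower and 6.79% higher. In control cells 91 of 129 were below 0, against 51.7% of all genes (median -0.16), and none passed. Their summed level was 9973 to 11327 CPM in KO and 11886 to 13978 in WT libraries, again without overlap. In 10 of the 129 (7.75%) all KO libraries were below all WT libraries, where 1.35% of all genes were, and in none were all above, where 1.63% were: EFL1, GRWD1, GTPBP4, NOL9, PWP1, RRP1B, RSL1D1, UTP4, UTP6 and WDR3. In the genotype average 1.53% of all genes passed the edgeR test (0.937% higher and 0.59% lower), and 1 of the 129 did. That was WDR3, an SSU processome protein (-0.44 ± 0.10, adjusted p = 0.0399, edgeR), with 279.9 to 334 CPM in KO and 383 to 466 in WT libraries. That call was lost in 8 of 11 fits that left out 1 library, those without WT control replicate 1 or 2 or KO compressed replicate 2 being the exceptions (adjusted p up to 0.228).

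In WT cells 8 of these 129 genes rose after compression and 1 fell, where 6.25% of all genes passed in either direction. The 3 risen genes with the smallest p were C1D, RSL24D1 and PAK1IP1. C1D, a cofactor of the RNA exosome, was at 1.14 ± 0.21 (adjusted p = 0.0410, edgeR). RSL24D1, a 60S factor, was at 1.32 ± 0.30 (adjusted p = 0.0414), and PAK1IP1, a 60S assembly factor, at 0.74 ± 0.18 (adjusted p = 0.0418). C1D went from 46.1 to 77.0 CPM in WT control to 107 to 149 CPM in WT compressed libraries, without overlap. The gene that fell was IMP4, a small subunit processing factor, at -0.68 ± 0.19 (adjusted p = 0.0477), from 135 to 148 CPM to 82.3 to 96.3 CPM. Each of these 9 calls was lost when any one WT library other than control replicate 1 was left out (adjusted p 0.0501 to 0.200). For compression averaged over genotypes, 5.58% of all genes passed the edgeR test, 3.33% higher and 2.24% lower. Of the 129 genes, C1D (0.80) and RSL24D1 (0.93) were higher and SURF6 (-0.73), a nucleolar matrix protein, was lower. MYC (-0.65), which is not in this list, was also lower (adjusted p 0.0399 to 0.0435 for these 4, edgeR). Each of these 4 calls was lost without WT control replicate 2 or 3, WT compressed replicate 1 or 3 or either KO control library, and those of RSL24D1 and MYC also without KO compressed replicate 2 (adjusted p 0.0527 to 0.182).

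MYC, the transcription factor that drives many of these genes, overlapped between the genotypes. Its level was 256, 407 and 443 CPM in WT control and 196, 252 and 243 CPM in WT compressed libraries. In KO cells it was 273 and 336 CPM in control and 243, 163 and 186 CPM in compressed libraries. Every compressed library was below the controls of its genotype (-0.68 ± 0.21 in WT cells, adjusted p = 0.0626, edgeR), and KO over WT was -0.28 in control and -0.22 in compressed cells, where neither passed. Of the 8 tested genes of MYC and its partner and antagonist proteins, 6 were above 0 in KO relative to WT in compressed cells (median 0.21) and none passed the edgeR test. The part of MYC in the members' levels was not tested.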

How the data were processed

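Poly(A)-selected RNA was sequenced in 11 libraries. Reads were processed with HISAT2 (2.0.5), CASAVA and FastQC on CanFam3.1, per the submitters' processing notes. No label or header names the gene counter, its strand setting or the annotation release. The values were raw counts per gene as the authors deposited them, and the authors' FPKM values, made from these counts with their gene lengths. No row lacked a gene (0 of 26178). Symbols came from the table; PES1 carried a spreadsheet-altered name, as did 38 names in all, and was matched by its protein. Where several rows matched a gene, the one with the longest span was used.

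From the deposited counts, edgeR 4.0.16 (R 4.3.3) with TMM scaling and filterByExpr fitted 4 group means over 11 libraries by quasi-likelihood (7 residual degrees of freedom). It tested 7 two-sided contrasts, with Benjamini-Hochberg adjustment over all 13560 genes and a threshold of 0.05. Standard errors were taken from the fold change and F statistic. Alternatives were DESeq2 1.42.0, RLE and library-size scaling, other filters (none, or 1 CPM in 3 samples), limma 3.58.1 with a trend on the log2 of the authors' FPKM after adding 1 or 0.1, a replicate block, the 2 groups alone, and each library left out. The main edgeR fit and DESeq2 were tested on simulated data, and the other alternatives were not. At these depths (10420214 to 17999623 counts) every member had ample reads, and the spread between libraries sets the precision.

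The members and all lists were chosen with earlier results of these data known. Values per library are given for members that passed in any contrast, for the member of each role with the highest mean FPKM and with the smallest p, and for the polymerase I genes. A few further values were chosen after they were seen: those of NCL and MYC, the values below the threshold in WT cells, the ratios within complexes and the gene density. No promoter or protein sequences were used here.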

Additional observations from a re-analysis of the deposited data

How the results depend on the processing

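No value changed sign while called. Members called for compression in WT cells numbered 2, against 7 with DESeq2, 8 with the 2 groups alone, 5 without a low count filter, 1 with library size alone and 0 in each of the 3 limma fits. Of all genes, 848 of 13560 were called, against 2558 of 13557 with DESeq2 and 2069 of 12719 with the 2 groups alone. Without a filter 1754 of 18224 genes were called, with library size alone 613 of 13560, and in the limma fits 0 or 1. For KO over WT in compressed cells the count was 1, against 3 with DESeq2 and 0 in each limma fit and with the 2 groups alone. All genes called there numbered 107 of 13560, against 371 of 13557 with DESeq2. They numbered 50 to 59 in the limma fits and 64 of 12597 with the 2 groups alone. For compression averaged over genotypes it was 2 (NPM1 and BOP1), against 7 with DESeq2, 5 without a filter, 1 with library size alone and 0 in each limma fit. The 1 with library size alone was DDX56, so the calls of NPM1 and BOP1 were both lost there. All genes called were 756 of 13560, against 2368 of 13557 with DESeq2 and 1619 of 18224 without a filter. With library size alone they were 557 of 13560, and in the limma fits 8 to 265. For genotype averaged over treatments it was 1, against 7 with DESeq2 and 2 each with RLE scaling, library size alone, the stricter filter and limma without a filter. All genes called were 207 of 13560, against 535 of 13557 with DESeq2, 206 and 204 of 13560 with RLE scaling and library size alone. With the stricter filter they were 208 of 12819, and with limma without a filter 147 of 18224. Leaving out 1 library at a time gave 0 to 5 (WT compression, 5 without WT control replicate 1, 0 without each of the other 5), 0 to 1 (KO over WT compressed, 1 only without KO compressed replicate 2), 0 to 6 (averaged compression) and 0 to 3 (averaged genotype). At these highest counts 1379 of 13504 and 349 of 13500 genes were called for the first 2 contrasts. For averaged compression 2106 of 13504 were, without WT control replicate 1, and for averaged genotype 217 of 13527, without KO compressed replicate 1. Without that last library the averaged compression call was DDX56 alone. Leaving out WT control replicate 1 and KO compressed replicate 2 together, chosen after seeing the data, gave 17, 8, 10 and 5. All genes called were then 4579, 1105, 2663 and 692 of 13451. KO compression, KO over WT in controls and the interaction had 0 members called in every alternative. Of all genes, 1, 390 and 370 of 13451 were called in these contrasts with both libraries left out. The members' median KO over WT stayed between -0.37 and -0.25 in compressed and between -0.24 and -0.14 in control cells; for WT compression it ran from -0.06 to 0.12. Scaling moved the median of all genes by under 0.1. The cause of these changes in count was not tested, beyond fewer samples where libraries were left out.

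Deviations from the group means had r from -0.349 to 0.201 between same-numbered libraries and from -0.251 to 0.3735 between differently numbered ones. With 2 or 3 libraries per group, this cannot show whether the numbers pair samples, and the main fit used no pairing. With a replicate block, 0 members were called in every contrast.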
